A study of Mus musculus with 10 samples.

Results

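Collagens and small leucine-rich proteoglycans (SLRPs) were followed through ribosome-protected mRNA fragments, or footprints, in developing mouse neocortex. The genes were chosen by symbol, as every row whose name begins with Col, a number, the letter a and a number, together with Dcn, Lum, Bgn, Ogn and Fmod. The rule matched 50 of the 22373 rows of the count table. One of these, Col4a3bp, encodes a ceramide transfer protein and no collagen chain, and lay between 10.9 and 15.4 CPM (the CPM of edgeR, which scales counts to a common library size) in all libraries. It was set aside, which left 49 genes, 44 collagens and 5 SLRPs. Col21a1 has no row in the table. Ribo-seq was performed on neocortex of wild-type CD-1 mice of both sexes, untreated, on embryonic days E12.5, E14, E15.5 and E17 and at birth (P0), with 2 libraries per stage and 10 in all. Each library was a pool of dissected brains, and lysates were digested with RNase T1 and RNase A without drug arrest of ribosomes. No stage was sorted for a cell type, so all cells left on or in the dissected tissue contributed.

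Collagens are proteins of 3 chains wound into a triple helix. Fibrillar types assemble into cables, type IV forms the sheet of basement membranes, and the fibril-associated types (FACIT collagens) sit on fibrils or have roles of their own. SLRPs are secreted proteins with leucine-rich repeats and, in most members, sugar chains that bind collagen fibrils and control their spacing and width. In the embryonic brain, fibrillar collagens and SLRPs are known mainly from the fibroblasts of the meninges, type IV collagen from the basement membranes of the pia and of blood vessels, and a few collagens from neurons.

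Library totals lay between 7544404 (P0 replicate 1) and 36129988 counts (E14 replicate 2). CPM values use library sizes scaled by the trimmed mean of M-values (TMM), and 1 count was worth 0.0239 to 0.109 CPM depending on the library. The libraries of P0 differed most from each other, where the log2 ratio of their values had an SD of 0.61 across genes, against 0.16 to 0.32 in the other stages. Markers of the labelled tissue were present throughout. Summed levels of 10 neuronal markers, led by Tubb3 and Map2, ran from 2377 and 2319 CPM at E12.5 to 8577 and 9800.4 at P0, and those of 10 radial glia markers, led by Fabp7 and Vim, from 2298 and 2238 to 1456 and 1992. Levels of members were not ranked against each other, since lengths were not used here, and the genes named as leading a marker list are those with the highest CPM, not scaled to length.

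Footprints of collagens and SLRPs were at their highest at E12.5, fell about 10-fold in the step from E14 to E15.5 and stayed low to birth. Summed over the 49 genes, the level was 236 and 250.2 CPM in the libraries of E12.5, 161 and 184 CPM at E14, 17.2 and 16.4 CPM at E15.5, 31.4 and 27.1 at E17, and 29.4 and 18.4 at P0. Both libraries of E15.5 and of every later stage lay under both of E12.5 and E14. As a share of all counts, these genes took 0.0201% and 0.0202% at E12.5 and 0.00183% and 0.00173% at E15.5. The ratio of stage means was 1.41 for E12.5 over E14, 10.3 for E14 over E15.5, 1.74 for E17 over E15.5 and 10.2 for E12.5 over P0. From footprints of bulk tissue alone, fewer cells of a type, less RNA per cell and fewer ribosomes per RNA cannot be told apart. The study's paired RNA-seq was not used here.

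The fall was counted first over all members without any filter on low counts. Both libraries of E15.5 lay below both of E14 for 34 of 49 members (69.4%), above both for 2 and overlapped for 13. Of 17660 genes with a count in these stages, 35.7% lay below and 30.9% lay above by the same measure. Col19a1, a FACIT collagen, and Col22a1, of the same class, were the members above. In the test, limma-voom over 13484 genes with at least 32 footprints in a stage, 26 of the 49 members were fitted. Of these, 10 passed the filter only through E12.5 or E14, so that the filter itself fixed a fall for them (Col5a1, Col6a1, Col6a2, Col6a3, Col9a2, Col13a1, Col15a1, Col16a1, Col23a1 and Lum), and Col19a1 passed only through later stages. A call needed an adjusted p under 0.05 and a change beyond the fold threshold of the study's methods. From E14 to E15.5, 25 of the 26 fell and 0 rose, where 19.6% of all genes tested were called lower and 16.5% higher. The remaining gene was Col19a1. The median fitted log2 fold change was -3.31 over the 26, with the members fixed by the filter included, and -0.01 over all genes tested. For the 3 type IV collagens tested, none of which the filter fixed, the median was -2.89. Without the filter, 31 of 49 members were called lower, and the share of all genes called in that fit was not counted. All 26, with the members fixed by the filter included, passed the F test over the 5 stages, which 63.8% of all genes tested also passed.

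**Figure D1:**
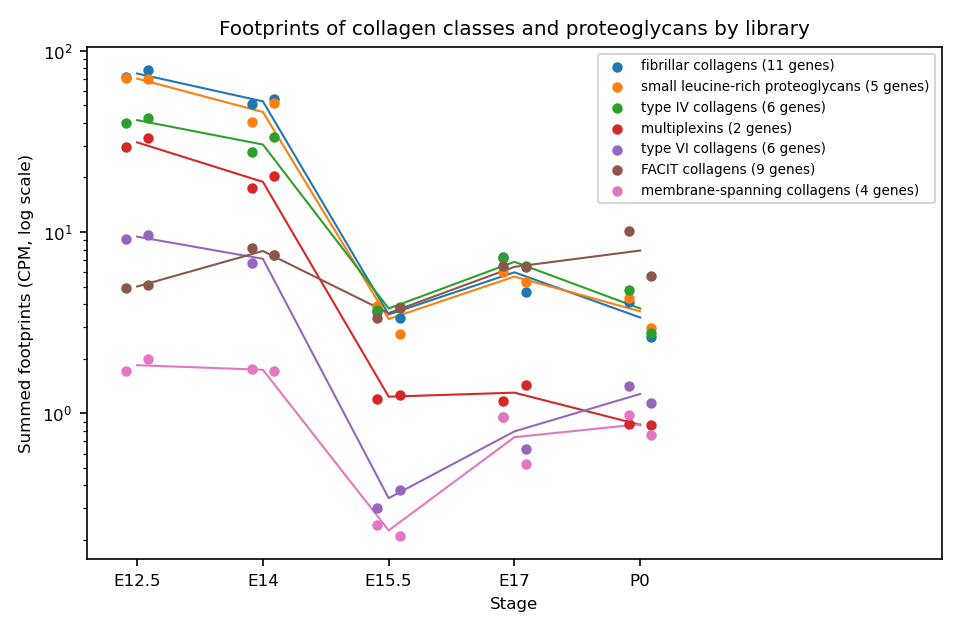
Summed footprint level of 7 classes of collagens and SLRPs in each library, in CPM on a log scale, by stage (points, 1 per library, n = 2 per stage, and lines, stage means). Between E14 and E15.5 fibrillar collagens dropped from 50.8 and 54.4 CPM to 3.64 and 3.38, whereas FACIT collagens were at 8.21 and 7.51 and then 3.34 and 3.80. FACIT collagens were the only one of these classes with a higher mean at P0 than at E12.5. Their sum was 4.89 and 5.12 CPM at E12.5, of which Col9a3 had 2.03 and 2.39. At P0 it was 10.1 and 5.70 CPM, of which Col9a3 had 7.18 and 3.01.

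Before this step the fitted changes were smaller and mostly of one sign. From E12.5 to E14, 23 of the 26 members tested had fitted changes below 0, with a median of -0.44, against -0.0015 over all genes tested. None was called in either direction, where 0.141% of all genes tested were called lower and 0.497% higher. At an unadjusted p under 0.05, 17 members were past the threshold by limma-voom, 14 by edgeR and 7 by DESeq2. How many of all genes passed that unadjusted threshold was not counted, so no excess of members can be read from these numbers. After adjustment 0 members were called by any of these tools, where limma-voom called 86 of all genes, edgeR 85 and DESeq2 388. Col18a1 (fitted log2 fold change -0.66, SE 0.12, adjusted p = 0.0514) and Col15a1 (-0.91, SE 0.19, adjusted p = 0.0679) came nearest. The count changed when a library of P0 was left out. Without P0 replicate 1, or without P0 replicate 2, 8 members were called, 7 of them lower (Col18a1, Dcn, Col2a1, Col3a1, Col15a1, Col4a1 and Lum) and Col9a3 higher. With the libraries of E12.5 and E14 alone in the fit, 0 were called. The share of all genes called in these refits was not counted, so the member calls there have no background to be set against.

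Type I collagen, the main component of fibrils in connective tissue, is built from the chains of Col1a1 and Col1a2. The level of Col1a1 was 13.5 and 15.4 CPM at E12.5, 9.80 and 10.3 CPM at E14, 0.422 and 0.422 CPM at E15.5, 1.97 and 1.13 CPM at E17 and 0.979 and 0.668 CPM at P0. No library of E15.5, E17 or P0 reached those of E14, and both of E17 lay above both of E15.5. At E12.5, Col1a2 stood at 13.6 and 15.7 CPM, followed by 10.6 and 11.3 CPM at E14, 0.331 and 0.338 CPM at E15.5, 1.30 and 0.751 CPM at E17 and 0.761 and 0.549 CPM at P0. By stage means the order of the stages was that of Col1a1, with overlap between E17 and P0. Col3a1 encodes type III collagen, a homotrimer that mixes with type I and is a ligand of the receptor Adgrg1 at the brain surface. Col3a1 measured 24.0 and 25.9 CPM at E12.5, 16.1 and 17.1 CPM at E14, 0.482 and 0.380 CPM at E15.5, 1.21 and 0.488 CPM at E17 and 0.435 and 0.286 CPM at P0. E17 lay just above E15.5, and P0 overlapped E15.5. From E14 to E15.5 the fitted log2 fold change was -4.52 (SE 0.38, adjusted p = 0.000132) for Col1a1, -4.96 (SE 0.39, adjusted p = 0.000109) for Col1a2 and -5.19 (SE 0.41, adjusted p = 0.000108) for Col3a1. From E12.5 to P0 it was -4.32 (SE 0.30, adjusted p = 6.59e-06) for Col1a1, -4.63 (SE 0.29, adjusted p = 4.34e-06) for Col1a2 and -6.27 (SE 0.45, adjusted p = 8.87e-06) for Col3a1.

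Col5a1 and Col5a2 encode chains of type V collagen, which nucleates type I fibrils. Col5a2 had 5.33 and 5.31 CPM in the libraries of E12.5, 3.67 and 4.06 CPM at E14, 0.422 and 0.380 CPM at E15.5, 0.667 and 0.450 CPM at E17 and 0.435 and 0.286 CPM at P0. The stages of E15.5 and later lay together, far under E12.5 and E14. Col5a1 ran from 2.47 and 2.69 CPM at E12.5 to 0.217 and 0.119 at P0 and its log2 change from E14 to E15.5 was -3.10 (SE 0.37, adjusted p = 0.000527). It passed the filter only through E12.5 or E14, so that its fall was fixed by the filter. Col2a1 encodes the fibrillar collagen of cartilage and is also known from embryonic neuroepithelium. The level of Col2a1 was 10.2 and 10.7 CPM at E12.5, 7.51 and 7.92 CPM at E14, 1.30 and 1.22 CPM at E15.5, 1.14 and 0.938 CPM at E17 and 0.652 and 0.215 CPM at P0. Its libraries of E17 and P0 all lay below those of E15.5. Its fitted change was -2.59 (SE 0.20, adjusted p = 0.000105) for E15.5 against E14 and -5.25 (SE 0.34, adjusted p = 4.81e-06) for P0 against E12.5. Col11a1, a minor fibrillar chain that joins type II, ran from 2.42 and 2.28 CPM at E12.5 to 0.217 and 0.215 at P0 and had fitted changes of -2.03 (SE 0.27, adjusted p = 0.00083) from E14 to E15.5 and -3.33 (SE 0.34) over the whole course. The other fibrillar genes, Col5a3, Col11a2, Col24a1 and Col27a1, held 2 to 18 counts over all libraries and were not tested.

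Promoter sequence was taken from RefSeq (GRCm38.p6) for the pair of fibrillar genes with the largest fitted falls from E14 to E15.5, Col3a1 and Col1a2, and for Col19a1, which was called higher from E12.5 to P0. The count table names no genome build. Each line gives the 250 bases before the annotated start, 5′ to 3′ on the strand of the gene. Capitals mark exact matches on either strand. The CCAAT box was searched by its own letters. A TATA box was taken as TATAAA, and a GC box, the site of Sp1 factors, was taken as GGGCGG.
Col1a2: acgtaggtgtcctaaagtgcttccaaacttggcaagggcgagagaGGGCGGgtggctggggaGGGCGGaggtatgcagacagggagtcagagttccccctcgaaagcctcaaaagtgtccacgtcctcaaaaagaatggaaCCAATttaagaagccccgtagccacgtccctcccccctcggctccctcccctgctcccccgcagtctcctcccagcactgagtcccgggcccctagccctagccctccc
Col3a1: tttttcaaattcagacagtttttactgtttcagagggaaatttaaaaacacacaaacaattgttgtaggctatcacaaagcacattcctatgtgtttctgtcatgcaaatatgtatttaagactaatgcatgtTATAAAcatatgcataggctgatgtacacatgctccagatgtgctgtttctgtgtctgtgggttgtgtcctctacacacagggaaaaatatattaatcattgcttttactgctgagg
Col19a1: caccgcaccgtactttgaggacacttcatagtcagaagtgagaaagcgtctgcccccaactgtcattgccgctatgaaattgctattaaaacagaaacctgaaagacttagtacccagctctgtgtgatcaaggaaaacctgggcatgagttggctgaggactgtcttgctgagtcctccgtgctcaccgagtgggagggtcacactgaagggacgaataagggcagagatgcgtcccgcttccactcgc
The window of Col1a2 spans chr6:4505368-4505617 on the plus strand and holds CCAAT 109 bases before the start and GGGCGG at 205 and 188 bases. That of Col3a1 spans chr1:45311288-45311537 on the plus strand and holds TATAAA 117 bases before the start. The window of Col19a1, chr1:24587438-24587687 on the minus strand, holds none of the motifs. Entries were found for 38 of the 49 members, with 41 windows in all. CCAAT was present in 31.7% of these windows and in 33.8% of 32851 windows of all genes, TATAAA in 14.6% and 12.4%, and GGGCGG in 56.1% and 32.7%. A match is a run of letters and no measured binding site. Several members are also neighbours in that annotation. Col3a1 and Col5a2 lie 24624 bases apart on chromosome 1, Dcn and Lum 47337 bases apart on chromosome 10, and the spans of Col4a1 and Col4a2 overlap by 85 bases on chromosome 8.

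**Figure D2:**
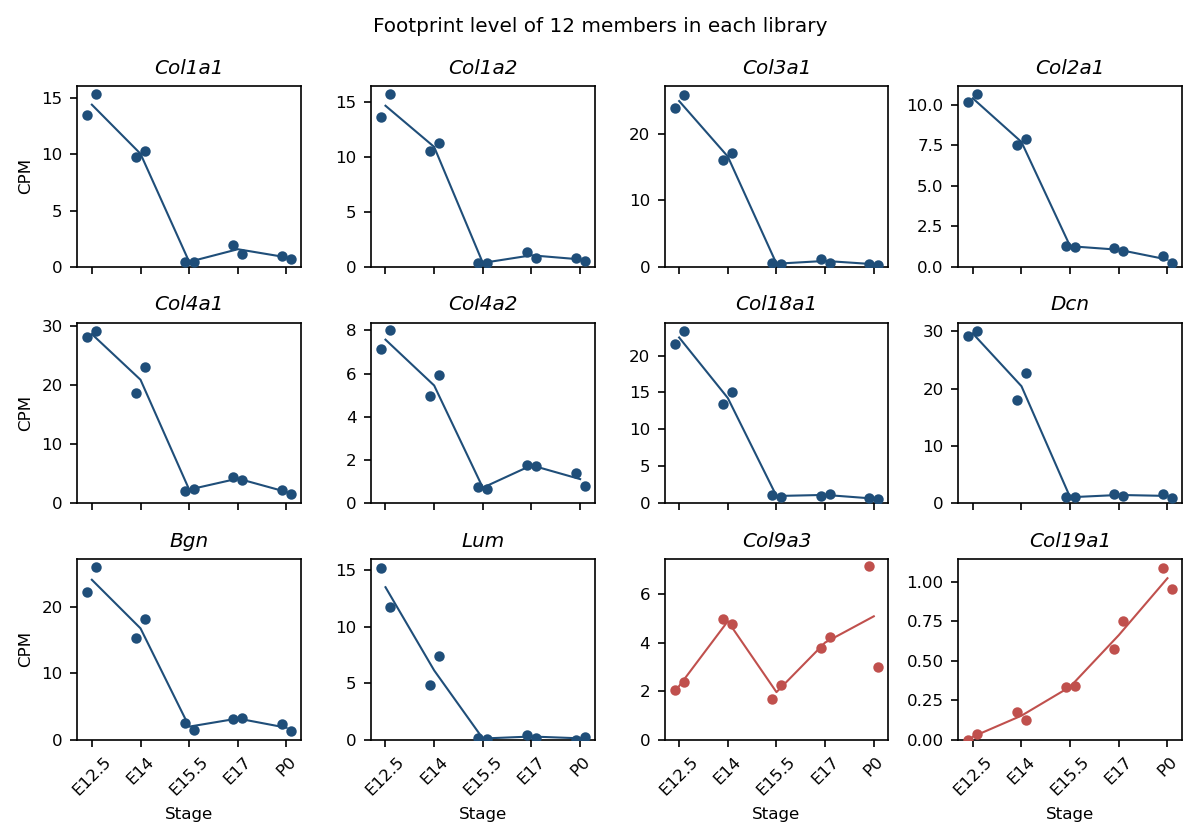
Footprint level of 12 members in each library, in CPM on linear axes that start at 0, by stage (points, 1 per library, n = 2 per stage, and lines, stage means). The 10 panels in blue drop between E14 and E15.5. Col9a3 (red) was at 4.99 and 4.78 CPM at E14, 1.69 and 2.24 CPM at E15.5 and 7.18 and 3.01 CPM at P0, and Col19a1 (red) was at 0 and 0.0374 at E12.5 and 1.09 and 0.954 at P0.

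Type IV collagen of most basement membranes is assembled from the chains of Col4a1 and Col4a2. At E12.5, Col4a1 stood at 28.1 and 29.2 CPM, followed by 18.7 and 23.1 CPM at E14, 2.14 and 2.45 CPM at E15.5, 4.38 and 3.94 CPM at E17 and 2.28 and 1.5 CPM at P0. E17 stood above E15.5 in both libraries, and P0 overlapped E15.5. Col4a2 measured 7.15 and 8.0 CPM at E12.5, 4.95 and 5.96 CPM at E14, 0.753 and 0.675 CPM at E15.5, 1.78 and 1.73 CPM at E17 and 1.41 and 0.811 CPM at P0. Here E17 was again above E15.5, and P0 overlapped neither E15.5 nor E17. Col4a5, which forms a separate network with other type IV chains, ran from 4.29 and 4.75 CPM at E12.5 to 0.761 and 0.310 at P0. From E14 to E15.5 the fitted change was -3.19 (SE 0.18, adjusted p = 4.77e-05) for Col4a1, -2.89 (SE 0.25, adjusted p = 0.000148) for Col4a2 and -2.48 (SE 0.28, adjusted p = 0.000384) for Col4a5. From E12.5 to P0 all of these genes also fell, with fitted changes of -4.11, -3.07 and -3.61 on the log2 scale. Col4a3, Col4a4 and Col4a6 held 6, 22 and 63 counts in all and were not tested. Summed over the 6 genes, type IV collagens had 27.5 and 33.3 CPM at E14 and 3.73 and 3.84 at E15.5, a ratio of means of 8.02. The same ratio was 17.5 for the 10 fibrillar and SLRP genes associated with the meninges (Col1a1, Col1a2, Col3a1, Col5a1, Col5a2 and the SLRPs), which went from 82.3 and 96.0 CPM to 5.75 and 4.43. The difference between these ratios was not tested.

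Multiplexins are basement membrane collagens whose cleaved ends act as signals, endostatin from Col18a1 among them. Col18a1 had 21.6 and 23.3 CPM in the libraries of E12.5, 13.5 and 15.0 CPM at E14, 1.08 and 0.844 CPM at E15.5, 0.984 and 1.24 CPM at E17 and 0.652 and 0.573 CPM at P0. The level of Col15a1 was 8.03 and 9.57 CPM at E12.5, 4.06 and 5.29 CPM at E14, 0.120 and 0.422 CPM at E15.5, 0.190 and 0.188 CPM at E17 and 0.217 and 0.286 CPM at P0. For both genes, the libraries of E15.5 and all later stages lay below those of E12.5 and E14. The fitted change from E14 to E15.5 was -3.84 (SE 0.19, adjusted p = 3.4e-05) for Col18a1 and -4.41 (SE 0.52, adjusted p = 0.000498) for Col15a1, with no call between later stages. Type VI collagen, a beaded filament that links basement membranes to fibrils, needs the chains of Col6a1, Col6a2 and Col6a3. At E12.5, Col6a2 stood at 5.06 and 5.50 CPM, followed by 3.84 and 4.09 CPM at E14, 0.151 and 0.211 CPM at E15.5, 0.444 and 0.338 CPM at E17 and 0.652 and 0.573 CPM at P0. Its libraries at P0 lay above those at E15.5 and E17, although no later step was called. From E14 to E15.5 the fitted change was -4.39 (SE 0.37, adjusted p = 0.000135) for Col6a2, -4.65 (SE 0.63, adjusted p = 0.000901) for Col6a1 and -4.30 (SE 0.82, adjusted p = 0.00458) for Col6a3, and Col6a3 rested on 2 counts at E15.5. The filter fixed these falls and that of Col15a1, since all of these genes passed it only through E12.5 or E14. Over summed counts, Col6a3 at E14 was 23.6-fold its level at E15.5 (95% exact interval 6.17 to 201, counting error only). Col6a4, Col6a5 and Col6a6 held 9, 4 and 70 counts in all and were not tested.

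Of the 5 SLRPs, 4 were tested and all 4 fell in the same step, where 19.6% of all genes tested were called lower. Dcn (decorin) and Bgn (biglycan) carry chondroitin or dermatan sulfate chains. Dcn measured 29.2 and 30.1 CPM at E12.5, 18.1 and 22.8 CPM at E14, 0.994 and 1.06 CPM at E15.5, 1.65 and 1.20 CPM at E17 and 1.63 and 0.883 CPM at P0. Bgn had 22.2 and 25.9 CPM in the libraries of E12.5, 15.3 and 18.2 CPM at E14, 2.44 and 1.48 CPM at E15.5, 3.17 and 3.19 CPM at E17 and 2.28 and 1.31 CPM at P0. Neither gene overlapped between E14 and E15.5, and no later library of either gene reached those of E14. Lum (lumican) is a keratan sulfate proteoglycan that passed the filter only through E12.5 and E14, with 6 counts at E15.5, so that its fall was fixed by the filter. The level of Lum was 15.2 and 11.8 CPM at E12.5, 4.86 and 7.41 CPM at E14, 0.120 and 0.0844 CPM at E15.5, 0.444 and 0.113 CPM at E17 and 0 and 0.239 CPM at P0. The 0 in P0 replicate 1 allows up to 0.326 CPM, since 3 counts are taken as the limit of a count of 0 and limits of this kind cover counting error only. At E12.5, Ogn stood at 3.41 and 1.61 CPM, followed by 1.85 and 2.41 CPM at E14, 0.241 and 0.127 CPM at E15.5, 0.698 and 0.713 CPM at E17 and 0.326 and 0.382 CPM at P0. Ogn, also named mimecan, varied between replicates at E12.5 more than the other SLRPs. Fmod measured 0.495 and 0.561 CPM at E12.5, 0.397 and 0.602 CPM at E14, 0.0904 and 0 CPM at E15.5, 0.0635 and 0.113 CPM at E17 and 0.109 and 0.143 CPM at P0. Fmod (fibromodulin) did not pass the filter, with 67 counts in all, and its libraries at E15.5 and later lay under all those of E12.5 and E14. The fitted change from E14 to E15.5 was -4.30 (SE 0.26, adjusted p = 5.78e-05) for Dcn, -3.08 (SE 0.25, adjusted p = 0.000115) for Bgn, -5.65 (SE 0.98, adjusted p = 0.00298) for Lum and -3.41 (SE 0.75, adjusted p = 0.00854) for Ogn. From E12.5 to P0 it was -4.89, -4.01, -6.22 and -2.52 in the same order, and all of these were called. The calls of Ogn did not hold without E15.5 replicate 1 (adjusted p = 0.0768 from E14 to E15.5) or without P0 replicate 2 (adjusted p = 0.147 from E12.5 to P0). With sample quality weights, Lum (adjusted p = 0.0803) and Ogn (adjusted p = 0.132) were not called from E12.5 to P0.

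FACIT collagens did not share one course. Col19a1, known from interneurons of the forebrain, went the other way. Col19a1 had 0 and 0.0374 CPM in the libraries of E12.5, 0.177 and 0.127 CPM at E14, 0.331 and 0.338 CPM at E15.5, 0.571 and 0.751 CPM at E17 and 1.09 and 0.954 CPM at P0. Both libraries of each stage stood above both of the stage before. Replicate 1 of E12.5 held 0 counts, which allows up to 0.165 CPM, and replicate 2 held 1. Over summed counts, 1 at E12.5 and 50 at P0, the level at P0 was 44.0-fold that at E12.5 (95% exact interval 7.54 to 1770.4, counting error only). The fitted change from E12.5 to P0 was 4.65 (SE 0.78, adjusted p = 0.000982). In this fit Col19a1 was the single member called higher, whereas edgeR and DESeq2 also called Col9a3 higher. The gene passed the filter through later stages alone, so its direction is not independent of the filter. No single step was called, the one from E14 to E15.5 having a fitted change of 1.10 (SE 0.49, adjusted p = 0.116). With scaling by total counts alone that step was also called higher.

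Col9a3, a chain of type IX collagen, which decorates type II fibrils in cartilage, had no single trend. The level of Col9a3 was 2.03 and 2.39 CPM at E12.5, 4.99 and 4.78 CPM at E14, 1.69 and 2.24 CPM at E15.5, 3.78 and 4.24 CPM at E17 and 7.18 and 3.01 CPM at P0. It was lowest at E12.5 and E15.5, and the libraries of P0 lay on either side of those of E17. From E14 to E15.5 it fell (-1.35, SE 0.34, adjusted p = 0.0164), a call that was lost without any 1 of the libraries of these stages (adjusted p between 0.0549 and 0.129). From E12.5 to P0 it was not called (0.80, SE 0.36, adjusted p = 0.0873). With edgeR, with DESeq2 and with scaling by total counts alone it was called higher in that comparison. Its partner Col9a2 ran from 0.770 and 0.972 CPM at E12.5 through 0.181 and 0.211 at E15.5 to 0.544 and 0.477 at P0, with fitted changes of -2.03 (SE 0.39, adjusted p = 0.00481) for E15.5 against E14 and -0.85 (SE 0.29, adjusted p = 0.0306) for P0 against E12.5. Col9a2 passed the filter only through E12.5 and E14, so that both falls were fixed by the filter. Col16a1 ran from 0.550 and 0.598 CPM at E12.5 to 0.435 and 0.310 at P0, and it fell from E14 to E15.5 (-1.47, SE 0.39, adjusted p = 0.0201) but was not called over the whole course (-0.80, SE 0.37, adjusted p = 0.0912). It passed the filter through E14 alone, which fixed its fall from E14 to E15.5. Col9a1, Col12a1, Col14a1, Col20a1 and Col22a1 held 73, 101, 53, 2 and 57 counts in all and were not tested.

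Membrane-spanning collagens include Col25a1, a collagen of neurons, and Col23a1. At E12.5, Col23a1 stood at 0.715 and 1.20 CPM, followed by 0.839 and 1.05 CPM at E14, 0.0602 and 0.0844 CPM at E15.5, 0.254 and 0.338 CPM at E17 and 0.544 and 0.239 CPM at P0. Its libraries of E17 and P0 lay between those of E15.5 and E12.5. It fell in the step to E15.5 (-3.48, SE 0.74, adjusted p = 0.00728) and over the whole course (-1.78, SE 0.42, adjusted p = 0.00616). Both falls were fixed by the filter, which Col23a1 passed only through E12.5 and E14. The first call was lost without E15.5 replicate 1 (adjusted p = 0.0795) or replicate 2 (0.0531), and the second without E12.5 replicate 2 (0.0605) or P0 replicate 2 (0.371). Col25a1 measured 0.220 and 0.187 CPM at E12.5, 0.177 and 0.127 CPM at E14, 0.151 and 0 CPM at E15.5, 0.508 and 0.188 CPM at E17 and 0.326 and 0.429 CPM at P0. With 64 counts over all libraries Col25a1 did not pass the filter, and the 0 at E15.5 allows up to 0.127 CPM. Over summed counts of 9 and 21, its level at P0 was 2.05-fold that at E12.5 (95% exact interval 0.901 to 5.09, counting error only), so that no change between these stages was detectable at this depth. Over counts of 21 and 5, the level at E17 was 4.11-fold that at E15.5 (1.51 to 13.9), and both libraries of E17 lay above both of E15.5. Col13a1, another membrane collagen, fell from E14 to E15.5 (-4.30, SE 1.10, adjusted p = 0.0164), where it held 1 count against 32 at E14, a ratio of 33.6 (95% exact interval 5.61 to 1367, counting error only). Col13a1 passed the filter through E14 alone, so that this fall was fixed too. Col17a1, with 12 counts in all, was not tested.

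Of the remaining classes, Col26a1, a collagen with an EMI domain, was the single gene tested. Col26a1 had 7.81 and 9.23 CPM in the libraries of E12.5, 7.29 and 6.68 CPM at E14, 0.813 and 0.675 CPM at E15.5, 1.17 and 1.46 CPM at E17 and 2.61 and 1.41 CPM at P0. P0 was above E15.5 in both libraries and under E14 in both. Its fitted change was -3.18 (SE 0.30, adjusted p = 0.000185) for E15.5 against E14 and -2.40 (SE 0.23, adjusted p = 4.33e-05) for P0 against E12.5. The network collagens Col8a1, Col8a2 and Col10a1 held 17, 49 and 4 counts, and Col7a1, the anchoring fibril collagen, and Col28a1 held 18 and 10. In all, 23 members were not tested, with 2 to 101 counts each over 10 libraries and a median of 18, and 7 members had under 10. None was at 0 in every library.

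**Figure D3:**
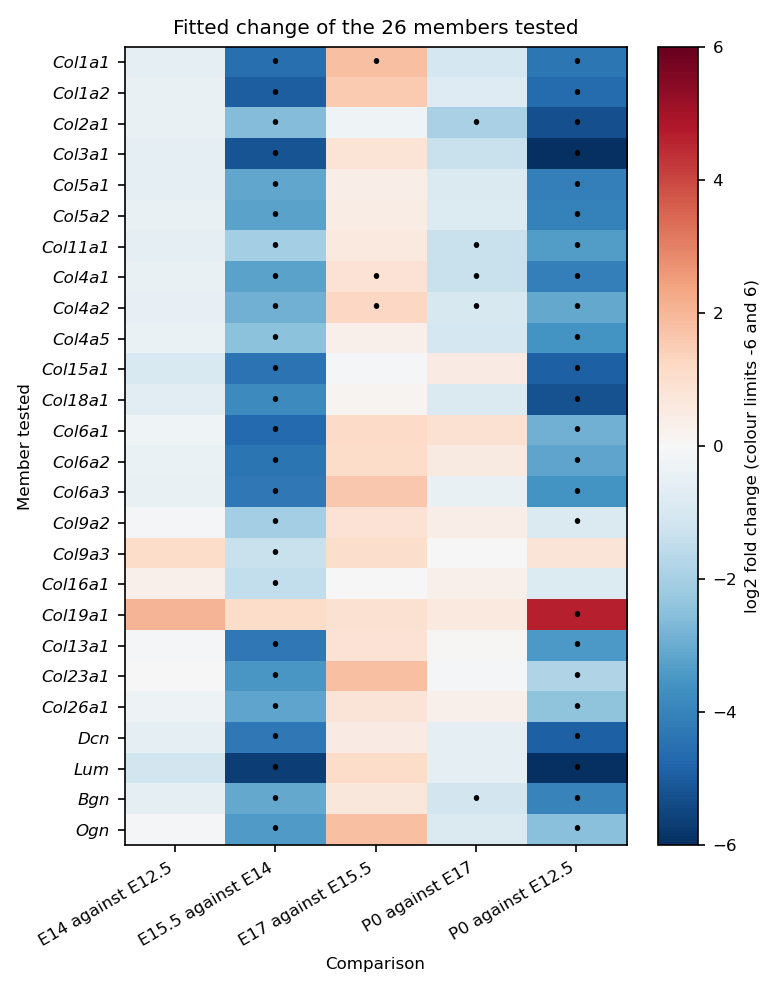
Fitted log2 fold change (limma-voom) of the 26 members tested in 5 comparisons between stages, red for higher and blue for lower in the stage named first, with colour limits of -6 and 6. A dot marks a call, by adjusted p and fold threshold. The column of E15.5 against E14 is blue and dotted for 25 genes, and Col19a1 is the single red and dotted cell of P0 against E12.5.

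After E15.5 a few members rose and, later, a few fell. Over all members with a count, both libraries of E17 lay above both of E15.5 for 25 of 47 (53.2%), where 30.3% of 17594 genes with a count did. The median fitted change of the 26 tested was 0.85. Only 3 were called higher and none lower, where 5.61% of all genes tested were called higher and 3.43% lower. These were Col1a1 (1.81, SE 0.41, adjusted p = 0.0343), Col4a2 (1.26, SE 0.27, adjusted p = 0.0289) and Col4a1 (0.87, SE 0.20, adjusted p = 0.0349). None of these calls held when E12.5 replicate 1 or any 1 of the 4 libraries of E15.5 and E17 was left out. Without E12.5 replicate 2 the single call was Col4a2, without either library of E14 the calls were Col4a1 and Col4a2, and without either library of P0 there were 5 (Col1a1, Col1a2, Col4a1, Col4a2 and Col9a3).

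From E17 to P0 the median fitted change was -0.66 and 5 of the 26 members were called lower and none higher, where 11.1% of all genes tested were called lower and 9.46% higher. They were Col2a1 (-1.95, SE 0.37, adjusted p = 0.00991), Col4a1 (-1.33, SE 0.22, adjusted p = 0.00591), Col11a1 (-1.32, SE 0.37, adjusted p = 0.0401), Bgn (-1.10, SE 0.30, adjusted p = 0.0335) and Col4a2 (-0.96, SE 0.25, adjusted p = 0.0307). The calls rested on single libraries. Leaving out E17 replicate 1 left 0 calls, leaving out P0 replicate 2 left none lower and 2 higher (Col26a1 and Col9a3), leaving out E12.5 replicate 1 left Col2a1 and Col4a1, and leaving out P0 replicate 1 gave 7 lower. Without E17 replicate 2, Col2a1 and Col4a1 remained of the 5. Leaving out E12.5 replicate 2 or either library of E14 left Col2a1, Col4a1 and Col4a2, and leaving out either library of E15.5 left Col2a1, Bgn and Col4a1.

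Over the whole course, both libraries of P0 lay below both of E12.5 for 33 of 49 members (67.3%), above both for 7 and overlapped for 9, where 31.9% of 18483 genes with a count in these stages lay below and 30.5% above. In the test 23 of the 26 members fell and 1 rose, where 32% of all genes tested were called lower and 30.1% higher. The filter fixed the direction of Col19a1 and of the same early members here too, except Col13a1 and Col16a1. These 2 passed it through E14 alone, with 28 and 26 counts at E12.5. Without the filter, 29 of 49 were called lower and 1 higher, and the share of all genes called in that fit was not counted. Col9a3 and Col16a1 were not called, although edgeR and DESeq2 called Col9a3 higher. The median fitted change was -3.59 over the 26, with the members fixed by the filter included, and -0.01 over all genes tested. For the 3 type IV collagens tested, none of which the filter fixed, the median was -3.61. By class, the ratio of summed CPM at E12.5 to that at P0 was 36.1 for multiplexins, 22.2 for fibrillar collagens, 19.2 for SLRPs, 10.9 for type IV, 7.37 for type VI, 4.28 for the group of Col7a1, Col26a1 and Col28a1, 4.22 for network collagens, 2.12 for membrane-spanning and 0.633 for FACIT collagens. The FACIT sum at P0 was 10.1 and 5.70 CPM, of which Col9a3 alone had 7.18 and 3.01.

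Paired chains were set against each other through their share of footprints, which depends on chain length and footprint recovery, so that only its change between stages is read. For types V and VI, the intervals of all stages overlapped. Col5a2 took 67.1% of the footprints of Col5a1 and Col5a2 at E12.5 (95% exact interval 62.0 to 72.0) and 69.6% at P0 (47.1 to 86.8), and Col6a2 took 70.1% of those of Col6a1 and Col6a2 at E12.5 (64.9 to 74.9) and 66.7% at P0 (51.1 to 80.0). Col1a1 took 49.6% of the pair with Col1a2 at E12.5 (46.9 to 52.3) and 60.1% at E17 (51.9 to 68.0). Col4a1 took 79.0% of the pair with Col4a2 at E12.5 (76.9 to 80.9), 70.4% at E17 (65.3 to 75.2) and 64.1% at P0 (55.3 to 72.3). These intervals cover counting error only, and those of E12.5 and P0 do not overlap for type IV.

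Shares between molecules were computed in the same way. Col3a1 took 63.2% of the footprints of Col3a1 and Col1a1 at E12.5 (61.0 to 65.5), 62.3% at E14 (59.7 to 64.8), 51.0% at E15.5 (36.3 to 65.6), 35.7% at E17 (27.8 to 44.1) and 30.2% at P0 (18.3 to 44.3). The share of Bgn in the pair with Dcn went from 45.1% at E12.5 (43.1 to 47.1) and 44.9% at E14 (42.7 to 47.1) to 66.7% at E15.5 (59.1 to 73.6), 68.8% at E17 (62.9 to 74.3) and 59.4% at P0 (50.3 to 68.0). Lum took 30.7% of the pair with Dcn at E12.5 (28.7 to 32.8), 23.4% at E14 (21.2 to 25.6), 9.38% at E15.5 (3.52 to 19.3), 16.8% at E17 (10.1 to 25.6) and 16.1% at P0 (8.02 to 27.7). The intervals of the 2 libraries of E12.5 did not overlap, at 34.3% (31.0 to 37.7) and 28.1% (25.5 to 30.9). The intervals of Col3a1 at E17 and P0, and those of Bgn at E15.5, E17 and P0, did not overlap those of E12.5. With 2 libraries per stage, no test over samples was run on these shares.

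**Figure D4:**
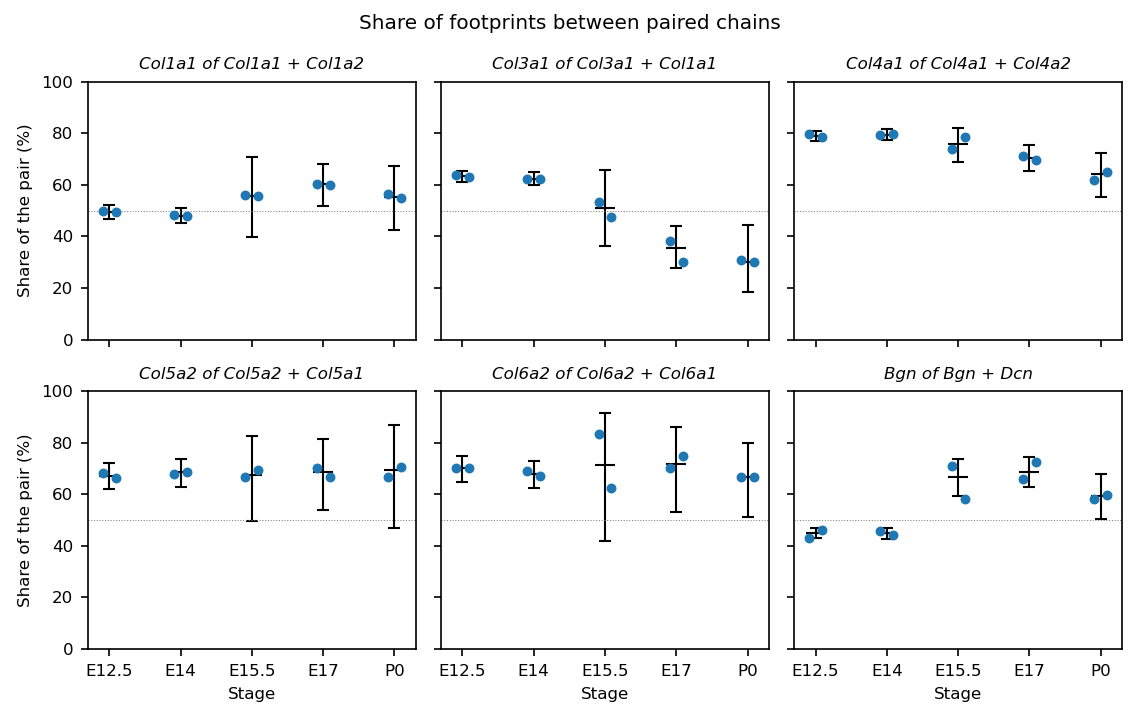
Share of the first gene in the summed counts of 6 gene pairs by stage, in percent (blue points, each library, n = 2 per stage, and black bars, both libraries summed with the 95% exact binomial interval, which covers counting error only). The share of Col3a1 against Col1a1 moved from 63.2% at E12.5 to 30.2% at P0, whereas those of type V and type VI chains stayed between 66.7% and 71.9%.

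Genes that act on collagen were taken from lists, whose counts stand beside 19.6% of all genes tested called lower and 16.5% higher from E14 to E15.5, and 32% lower and 30.1% higher from E12.5 to P0. Of 18 genes for modification and folding in the endoplasmic reticulum, all were tested, and from E14 to E15.5, 14 fell and none rose (median -1.48). From E12.5 to P0, 15 fell and 1, Colgalt2, rose. Serpinh1, the collagen chaperone HSP47, fell in both comparisons, with fitted changes of -2.73 (SE 0.18, adjusted p = 6.04e-05) and -4.73 (SE 0.20). P4ha1 and P4hb, subunits of prolyl 4-hydroxylase, had fitted changes of -1.23 and -1.21 from E14 to E15.5 and -2.03 and -1.77 from E12.5 to P0, all called. Of 14 genes for processing and cross-linking, 8 were tested, and 6 fell and none rose from E14 to E15.5, while 7 fell and 1 rose from E12.5 to P0. Adamts3, a procollagen N-proteinase, was the gene that rose (0.61, SE 0.21, adjusted p = 0.0322). Of these 8 genes, 4 passed the filter only through E12.5 or E14, as did 1 of the 18, so that the filter fixed their direction.

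Of 10 collagen receptors, 8 were tested, of which 6 fell from E14 to E15.5 and 7 fell from E12.5 to P0, with none higher. Over all genes tested, 19.6% were called lower in the first comparison and 32% in the second. Adgrg1, a receptor of type III collagen on neural progenitors, fell in both (-1.71 and -2.68), as did the collagen-activated kinase Ddr1 (-1.62 and -2.95). Itgb1, the beta subunit of collagen-binding integrins, was called from E12.5 to P0 (-2.97) and not from E14 to E15.5 (-0.65, SE 0.22, adjusted p = 0.0512). Of 15 basement membrane partners of type IV collagen, 12 were tested and all 12 fell in both comparisons, with medians of -2.35 and -3.00. Of these 12, 6 had passed the filter only through E12.5 or E14, as had 2 of the 8 receptors. Among the 12 were Sparc, a collagen-binding glycoprotein (-2.08 from E14 to E15.5), the laminin chain Lamb1 (-1.90) and the heparan sulfate proteoglycan Agrn (-1.08). None of these genes was among the 6. Of 11 further leucine-rich repeat proteoglycans and relatives, 4 were tested, and Prelp (-3.28 from E14 to E15.5), Epyc (-3.33) and Optc (-3.38) fell in both comparisons, Prelp and Epyc with a direction that the filter fixed. These changes rest on few counts, since all 11 genes together held 162 and 186 in the libraries of E14 and 35 and 31 at E15.5.

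Markers of cells known to make these molecules were followed from E14 to E15.5, where 19.6% of all genes tested were called lower and 16.5% higher. Summed levels of 10 markers of meningeal fibroblasts, led by Cxcl12 and Crabp2, were 150.0 and 139 CPM at E12.5, 111 and 119 CPM at E14, 32.9 and 34.5 CPM at E15.5, 48.9 and 38.5 at E17 and 39.5 and 24.9 at P0, and all 8 tested fell from E14 to E15.5 (median -3.36), 5 of them having passed the filter only through E12.5 or E14. Their sum is mostly Cxcl12, which had 81.6 and 91.2 CPM at E14 and 30.2 and 32.4 at E15.5, whereas Crabp2 had 13.2 and 15.1 CPM at E14 and 0.873 and 0.886 CPM at E15.5. For 12 endothelial markers, led by Cldn5 and Egfl7, the sums were 62.5 and 63.8 CPM at E12.5, 52.8 and 61.1 CPM at E14, 20.5 and 17.3 CPM at E15.5, 28.8 and 35.5 at E17 and 32.5 and 22.1 at P0, and 11 of 12 fell (median -1.86). The 10 markers of pericytes and mural cells, led by Acta2 and Rgs5, stood at 131 and 129.7 CPM at E12.5, 151 and 145 CPM at E14, 162 and 159 CPM at E15.5, 189.9 and 201 at E17 and 125 and 234 at P0, and 4 of 9 tested fell and none rose (median -1.48). Most of that sum was Acta2, at 97.6 and 85.3 CPM at E14 and 107 and 113 CPM at E15.5, which was not called. Tek of the endothelial list and Notch3 of the pericyte list had passed the filter only through E12.5 or E14. No marker of these 3 lists was at 0 in both libraries of E14, and Twist2 was at 0 in both of E15.5.

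Tissues next to the neocortex were looked at in the same way, beside the same 19.6% of all genes tested called lower and 16.5% higher. The sums of 10 choroid plexus markers, led by Ttr and Calml4, were 364 and 289 CPM at E12.5, 1162 and 1165 CPM at E14, 14.7 and 11.3 CPM at E15.5, 6.95 and 8.07 at E17 and 15.3 and 15.8 at P0, and 7 of 8 tested fell from E14 to E15.5, where 4 had passed the filter only through E12.5 or E14. For 12 cartilage and bone markers, led by Alpl and Cnmd, the sums were 3.96 and 4.41 CPM at E12.5, 3.71 and 3.23 CPM at E14, 0.542 and 0.464 CPM at E15.5, 0.540 and 0.676 at E17 and 0.326 and 0.906 at P0, and 2 of 3 tested fell, all 3 having passed the filter only through E12.5 or E14. The 3 tested were Cnmd, Ucma and Alpl. The whole list held 84 and 102 counts in the libraries of E14 and 18 and 11 at E15.5. Acan, Comp and Bglap of the same list held 6, 2 and 1 counts in all 10 libraries. Neuronal markers all rose in the same step (10 of 10), whereas 8 of 10 radial glia markers fell and Fabp7 rose. The part of these cell types, and of how much meninges, vessel or choroid plexus was left on the tissue at each stage, in the levels of collagens and SLRPs was not tested.

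**Figure D5:**
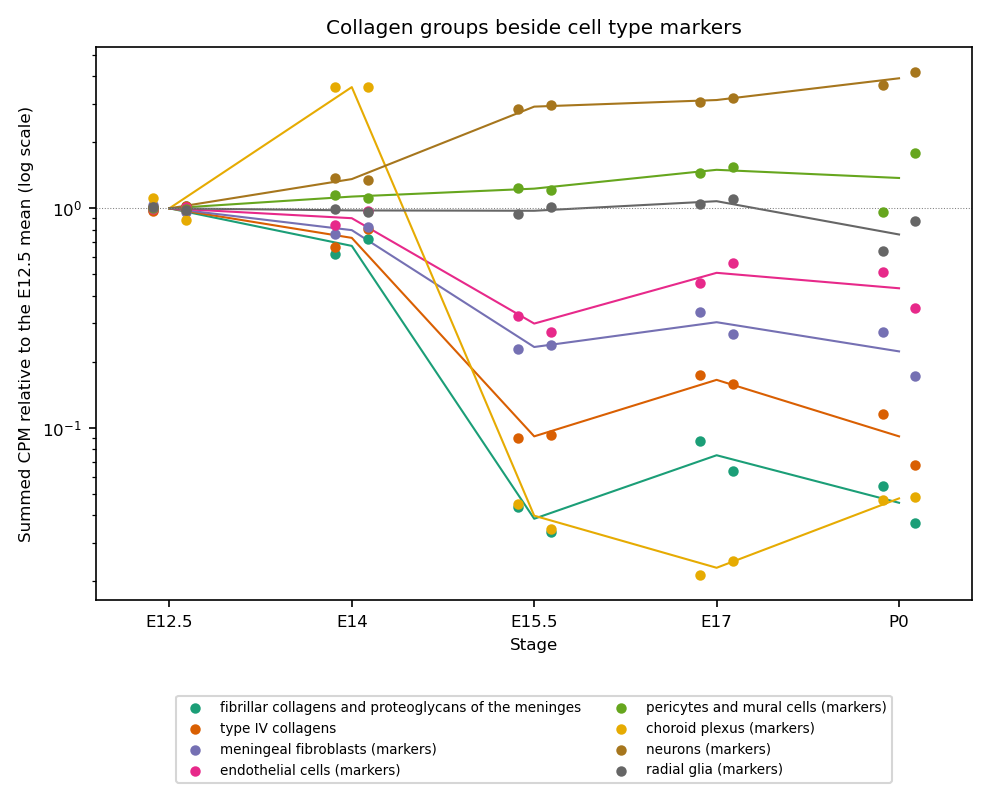
Summed CPM of 2 member groups and 6 marker lists relative to their mean at E12.5, on a log scale, by stage (points, 1 per library, n = 2 per stage, and lines, stage means). From E14 to E15.5 the meningeal fibrillar collagens and SLRPs went from 82.3 and 96.0 CPM to 5.75 and 4.43, and type IV collagens from 27.5 and 33.3 to 3.73 and 3.84, beside falls of the meningeal, endothelial and choroid plexus markers and a rise of the neuronal ones. Summed markers of pericytes and mural cells went from 151 and 145 CPM to 162 and 159. Those of radial glia went from 2246 and 2192 CPM to 2131 and 2291.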

How the data were processed

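Ribosome footprints were sequenced from pools of mouse neocortex at 5 stages, with 2 libraries per stage. The deposited values are whole-number counts per gene, not scaled to depth. Per the study's methods, the authors trimmed adapters, collapsed duplicate reads, removed tRNA, rRNA and snoRNA and aligned to coding transcripts of GENCODE M12. The submitters' processing notes name STAR 2.7.0. The methods allow a read to match many places, estimate transcript abundance with DeepShape-prime and sum it per gene with tximport. Whether the deposited counts came from these steps is not stated, so genes with close relatives are uncertain. Of 22373 identifiers, 22274 matched a symbol. All columns were used.

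Counts were analysed in R 4.3.3 with limma-voom (limma 3.58.1), the study's stated method, with TMM factors (edgeR 4.0.16). A gene was kept if the libraries of any stage together held 32 footprints or more (13484), and all 10 libraries were fitted with 1 coefficient per stage. Moderated tests were two-sided, with Benjamini-Hochberg adjustment over the genes kept. Calls needed an adjusted p under 0.05 and a fold of at least 1.25, and the F test used the adjusted p alone. Fitted fold changes of genes with few counts depend on the offset that voom adds. Intervals are exact at 95%. Alternatives were edgeR's quasi-likelihood test, DESeq2 1.42.0, other scalings, filters, sample weights, a replicate block and leaving out each library. The code was tested on simulated counts. Replicates are pools, so p-values measure the spread between pools. Between 2 stages of 2 libraries, an exact permutation test could not reach 0.05, and none was run. Library totals of 7544404 to 36129988 counts set the precision.

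Values in every library are given for members with a mean of at least 50 counts that passed the F test, up to 6 per class, for the SLRPs, Col4a1 and Col4a2, and for Col19a1, Col23a1 and Col25a1. From each list of related genes, up to 3 called lower and 3 called higher with a mean of at least 100 counts are named, largest change first, and from each marker list the 2 with the highest mean CPM. Others are named where a count is small. Members and lists were chosen with earlier results of these data known.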

Additional observations from a re-analysis of the deposited data

How the results depend on the processing

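Members called from E14 to E15.5 numbered 19 to 25 when 1 library was left out, from E12.5 to P0 21 to 24, and in the F test 24 to 26. With sample quality weights 17 were called lower and 1 higher from E12.5 to P0, and the calls of Ogn, Lum, Col6a3, Col9a2, Col13a1 and Col23a1 were lost. Counts of the other steps moved more. From E12.5 to E14, 0 members were called, and 4 with sample quality weights (Col18a1, Col15a1 and Lum lower, Col9a3 higher), 9 without the P0 stage (a setting chosen after seeing the data) and 0 to 8 when 1 library was left out. From E15.5 to E17, 3 were called, and 11 with sample quality weights, 7 with these stages alone, 5 without the P0 stage and 0 to 5 when 1 library was left out. From E17 to P0, 5 were called, and 3 without a filter on low counts, 3 with DESeq2, 0 with sample quality weights, 0 with these stages alone and 0 to 7 when 1 library was left out. The causes were not tested, and the share of all genes called under each alternative is not given here. Scaling by total counts alone moved the median fitted change of all genes to 0.29 from E14 to E15.5 and to 0.51 from E12.5 to P0, and the ratio of summed CPM to 8.37 for E14 over E15.5 and to 7.02 for E12.5 over P0. Leaving out 1 library moved the summed ratios to between 9.59 and 10.9 for E14 over E15.5, 8.29 and 13.2 for E12.5 over P0 (13.2 without P0 replicate 1), 1.32 and 1.51 for E12.5 over E14, and 1.61 and 1.87 for E17 over E15.5. Of 41 calls for members given in every library, none turned direction under any alternative run. All 41 held under the other scalings and under edgeR's own filter, 39 held with edgeR, 38 with DESeq2, 38 without a filter and 34 with sample quality weights.

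Replicate numbers were not taken to pair the samples in the main fit. The correlation of replicate deviations between stages ran from -0.65 to 0.28 over 10 pairs of stages, with a median of 0.053 and 5 pairs above 0.1. Whether libraries of different stages shared a batch was not tested. With the replicate number as a block, 2 members (Col2a1 and Col4a1) were called from E17 to P0 in place of 5, 2 (Col1a1 and Col4a2) from E15.5 to E17 in place of 3, 25 from E14 to E15.5, 23 from E12.5 to P0, 0 from E12.5 to E14 and 25 in the F test. The members held 270 to 990 counts per library from E15.5 on, against 3648 to 6692 before, which limits the precision of their late values, while library totals were of like size apart from the shallow P0 replicate 1.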
